A study of Mus musculus with 36 samples.

Results

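The mitochondrial ribosomal protein genes were taken as the protein-coding genes of the count table whose mouse symbol starts with Mrpl or Mrps followed by a digit, with symbols holding -ps left out. This gave 77 members, 48 named Mrpl and 29 named Mrps, of 37315 genes in the table, of which 35533 had a symbol and 21208 were protein-coding. By known structure, 50 of the members belong to the large subunit and 26 to the small subunit. Mrps18a and Mrps30 count with the large subunit despite their names, and Mrps36 belongs to neither, being a component of the 2-oxoglutarate dehydrogenase complex. Messenger RNA came from the medial (MEC) and lateral (LEC) entorhinal cortex and from the hippocampal fields CA3 and CA1 of wild-type mice on a BL/6 background, with no other allele given. Each region had 3 libraries of mice given a foot shock (treatment label Fear), 3 of context-exposed mice and 3 of home cage mice, 36 libraries in all. All mice had been housed singly and handled for 3 minutes a day on 5 days, and tissue was taken 90 minutes after the behaviour. Age is not given in the sources used here. No label links replicate numbers to animals. Libraries of several regions may therefore stem from the same mouse, and each p-value below measures the spread between libraries.

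Mitochondria keep their own ribosome, which translates the few membrane proteins of oxidative phosphorylation that mitochondrial DNA encodes. Its RNAs come from mitochondrial DNA, whereas all of its proteins are encoded in the nucleus, made in the cytosol and imported, so that a working mitoribosome needs transcripts of both genomes. Some of the proteins have a counterpart in the bacterial ribosome and others are found in mitochondria alone. The promoters of several of these genes are known to hold sites for nuclear respiratory factor 1 (NRF1), for the ETS factor GABP (also called NRF2) and for YY1, and neurons, with a high demand for oxidative phosphorylation, carry mitochondria along axons and dendrites.

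Promoters are shown for 6 of the 10 members called lower after context in CA3: the 4 of smallest p with a RefSeq promoter (Mrpl14, Mrpl34, Mrpl55 and Mrpl41), and Mrpl12 and Mrps21, added because they hold an NRF1 match. They run from 170 bases before to 30 bases after the RefSeq start in GRCm38.p6, 5′ to 3′ on the gene's strand. Capitals mark matches to the NRF1 motif GCGCANGCG or to the ETS motif CCGGAAG, either as spelled or as the reverse complement, with N for any base. The windows are chr17:45686179-45686378 on the plus strand for Mrpl14, chr8:71464756-71464955 on the plus strand for Mrpl34, chr11:59202316-59202515 on the plus strand for Mrpl55, chr2:24975069-24975268 on the minus strand for Mrpl41, chr11:120484467-120484666 on the plus strand for Mrpl12 and chr3:95871485-95871684 on the minus strand for Mrps21.
Mrpl14: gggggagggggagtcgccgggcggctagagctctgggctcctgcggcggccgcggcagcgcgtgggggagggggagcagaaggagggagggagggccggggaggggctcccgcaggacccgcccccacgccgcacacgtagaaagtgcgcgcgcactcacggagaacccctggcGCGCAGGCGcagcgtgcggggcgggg
Mrpl34: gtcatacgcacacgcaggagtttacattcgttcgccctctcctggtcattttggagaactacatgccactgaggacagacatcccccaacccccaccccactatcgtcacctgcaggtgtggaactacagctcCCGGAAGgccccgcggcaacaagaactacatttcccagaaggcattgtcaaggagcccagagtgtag
Mrpl55: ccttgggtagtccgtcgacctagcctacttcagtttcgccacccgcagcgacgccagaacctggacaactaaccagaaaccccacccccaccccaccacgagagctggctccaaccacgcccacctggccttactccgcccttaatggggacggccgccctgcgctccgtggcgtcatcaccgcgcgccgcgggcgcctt
Mrpl41: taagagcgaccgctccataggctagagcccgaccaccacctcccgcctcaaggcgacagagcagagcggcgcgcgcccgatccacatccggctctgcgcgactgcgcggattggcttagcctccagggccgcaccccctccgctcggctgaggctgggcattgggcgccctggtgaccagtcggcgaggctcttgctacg
Mrpl12: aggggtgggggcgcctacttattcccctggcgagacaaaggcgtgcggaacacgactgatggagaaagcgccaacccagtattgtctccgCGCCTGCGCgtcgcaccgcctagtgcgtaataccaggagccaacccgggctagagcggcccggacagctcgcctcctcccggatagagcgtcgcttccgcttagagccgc
Mrps21: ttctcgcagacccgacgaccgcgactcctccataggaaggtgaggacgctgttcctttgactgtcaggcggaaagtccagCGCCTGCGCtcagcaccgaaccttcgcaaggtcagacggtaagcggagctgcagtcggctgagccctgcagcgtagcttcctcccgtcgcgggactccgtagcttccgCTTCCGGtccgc
Mrpl14 and Mrpl12 hold an NRF1 match, Mrpl34 holds an ETS match, Mrps21 holds both, and Mrpl55 and Mrpl41 hold neither in these windows.

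A promoter of 300 bases, from 250 before to 50 after the start, was found in the RefSeq table for 68 of the 77 members and for 16177 protein-coding genes. The ETS motif lay in 25 of the 68 members' promoters on either strand (36.8%), against 13.5% of all promoters. The NRF1 motif lay in 16 (23.5%, against 10.2%) and the YY1 motif AAGATGGC in 12 (17.6%, against 3.68%). TATAAA lay in 5 (7.35%, against 14.0%), the E-box CACGTG in 5 (7.35%, against 9.29%) and the cAMP response element TGACGTCA in 2 (2.94%, against 2.66%). The members' promoters had a median of 21 CpG dinucleotides, against 14.5 in all promoters. A match is a run of letters and not a measured binding site, and its absence from a window says nothing of the factor.

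Between 21871412 and 68974340 counts per library were assigned to genes, with a median of 28098007, and the members took 0.147% to 0.212% of them. Replicates of every group differed by more than sampling noise. The CA3 and CA1 labels were checked against markers: 6 of 6 CA3 pyramidal markers were higher in CA3 than in CA1 and 5 of 5 CA1 markers lower. No such check is given here for the MEC and LEC labels. In CA3, context 2 and home cage 2 lay furthest apart for 9 of the 10 members called there, and the CA3 comparisons with home cage are given with and without them. Every comparison below counts a gene as called at an adjusted p under 0.05 in edgeR's quasi-likelihood test, with Benjamini-Hochberg adjustment over all genes tested. Levels are CPM, counts scaled to the library total and corrected by TMM over the 36 libraries, and changes are log2 fold changes with standard errors. The fear and context comparisons of a region share its 3 home cage libraries, so their values are set side by side without a test of their likeness. In bulk tissue, fewer cells of a type and less RNA per cell cannot be told apart.

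The members differed widely in level and kept their order across the brain. Per kilobase of the principal transcript, the median member stood at 13.7 CPM per kilobase over the 36 libraries, with regional medians of 13.0 in MEC, 13.4 in LEC, 14.0 in CA3 and 13.5 in CA1. Mrpl42, a mitochondria-specific protein of the large subunit, was highest at 54.6 ± 8.78 CPM per kilobase (SD, n = 36). Mrpl20 followed at 41.8 ± 6.27, Mrps21 at 41.4 ± 10.3, Mrpl30 at 40.5 ± 7.11, Mrps18a at 37.7 ± 4.63, Mrpl41 at 37.5 ± 6.18, Mrpl27 at 37.1 ± 5.25 and Mrpl37 at 29.0 ± 2.45 CPM per kilobase. From Mrpl20 to Mrpl27 the means lay within 1 SD of each other. This SD measures the spread between libraries, and the order of the means was not tested.

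The lower end of the range was formed by members of both subunits. Mrpl57 stood at 3.60 ± 0.71, Mrpl32 at 3.56 ± 0.72, Mrps35 at 3.10 ± 0.41 and Mrpl17 at 2.99 ± 0.39 CPM per kilobase (SD, n = 36), again within 1 SD of a neighbour. Large-subunit members had a median of 14.2 CPM per kilobase and small-subunit members 11.4. Members with a bacterial counterpart had a median of 14.5 and mitochondria-specific ones 12.6. Spearman's rho of the members' mean levels between pairs of regions was 0.947 to 0.988, a description across genes of one tissue source that share their length and base composition in every region.

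**Figure D1:**
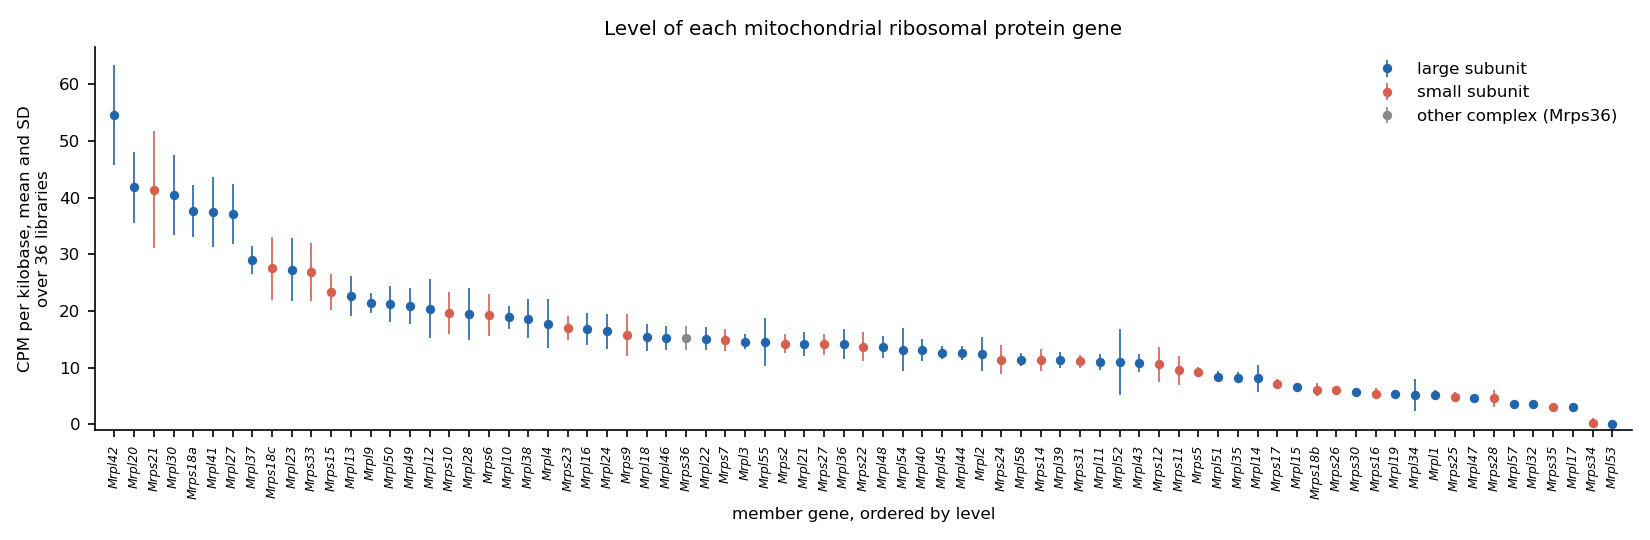
Mean level of each of the 77 members in CPM per kilobase of principal transcript, with bars of 1 SD over 36 libraries, coloured by subunit and ordered from the highest. Mrpl42 stands alone at 54.6, the next 6 members lie between 37.1 and 41.8, and Mrps34 and Mrpl53 are at or near 0.

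The least abundant members lie in crowded stretches of the annotation. Mrpl53 (GRCm38 chromosome 6, 83109040 to 83109939, plus strand) was listed at 0 counts in all 36 libraries, and 695 of its 790 exonic bases overlap Gm42688 on the same strand. Mrps34 (chromosome 17, 24895116 to 24897502, plus strand) had 0 to 126 counts, with 763 of 2064 exonic bases shared with Nme3 on the same strand and 1309 with Mapk8ip3 on the other. Its highest level, 5.02 CPM, stood in CA3 home cage 2 alone, while MEC, LEC and CA1 libraries reached 0.405, 0.419 and 0.344 CPM. These were the members that did not pass the filter on low counts within regions, which left 75 members tested there and 76 in the fit of all libraries, where Mrps34 passed. In all, 32 members share exonic bases with another gene, 7 on the same strand and 28 on the opposite one, and their counts are uncertain, with the counting mode and strand setting not given in the sources used here. Of the members named below, Mrps6 shares 305 bases with Gm49711 and 159 with Slc5a3 on its own strand, and Mrps24 shares 226 with Urgcp on its own strand. On the other strand, Mrpl48 shares 708 bases with Rab6a, Mrps18b 638 with Gm16279, Mrps30 623 with B430218F22Rik, Mrpl47 616 with Ndufb5 and 452 with Actl6a, and Mrpl43 507 with Twnk. Smaller overlaps on the other strand are those of Mrpl12 with Gm16755 (200), of Mrps11 with Mrpl46 (173), of Mrpl9 with Oaz3 (157), of Mrpl14 with Tmem63b (106), of Mrpl49 with Syvn1 (91), of Mrpl27 with Eme1 (75), of Mrpl36 with Ndufs6 (30) and of Mrpl58 with Ict1os (2).

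Individual members also differed in how far they varied. The median ratio of a member's highest to its lowest library was 1.93. It was 14.5 for Mrpl34, 6.50 for Mrpl52, 5.09 for Mrpl14 and 5.08 for Mrpl12, and 1.38 for Mrpl9 and 1.43 for Mrpl37. Mrpl34 and Mrpl52 are also among the less abundant members, at 0.824 to 11.9 and 2.48 to 16.1 CPM. After removal of group means, log2 CPM of 76 members correlated weakly between members over the 36 libraries, with a median r of 0.178 over 2850 pairs, a description in which all pairs share libraries.

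Summed over the 77 members, levels were lower after fear and after context than in the home cage in all 4 regions by their means, but the libraries overlapped in part. In MEC the sum was 1690 ± 68.2 CPM after fear and 1665 ± 50.5 CPM after context, against 1783 ± 67.6 in the home cage (SD, n = 3 each). In LEC it was 1648 ± 90.1 after fear and 1761 ± 90.2 after context, against 1812 ± 83.1 in the home cage. In CA3 it was 1653 ± 42.4 after fear and 1656 ± 78.1 after context, against 1863 ± 155 in the home cage. In CA1 it was 1671 ± 97.0 after fear and 1685 ± 56.3 after context, against 1857 ± 105 in the home cage. Only in CA1 did all 3 fear libraries (1614 to 1783) and all 3 context libraries (1624 to 1735) lie below all 3 home cage libraries (1793 to 1978). In MEC, LEC and CA3 at least 1 home cage library lay within the range of a behaviour group, the lowest being 1714, 1717 and 1685. The share of counts taken by the 13 mitochondrially encoded protein genes was also highest in the home cage by its means in all 4 regions. In CA1 it was 4.69% to 6.34% after fear and 5.42% to 5.56% after context, against 6.45% to 10.5% in the home cage, again without overlap. Its means were 4.75% after fear and 4.74% after context against 6.26% in the home cage of MEC, 5.98% and 6.34% against 7.40% in LEC, and 4.44% and 5.81% against 5.84% in CA3. Its part in the sums was not tested. No p is given for these sums over members chosen with earlier results known.

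**Figure D2:**
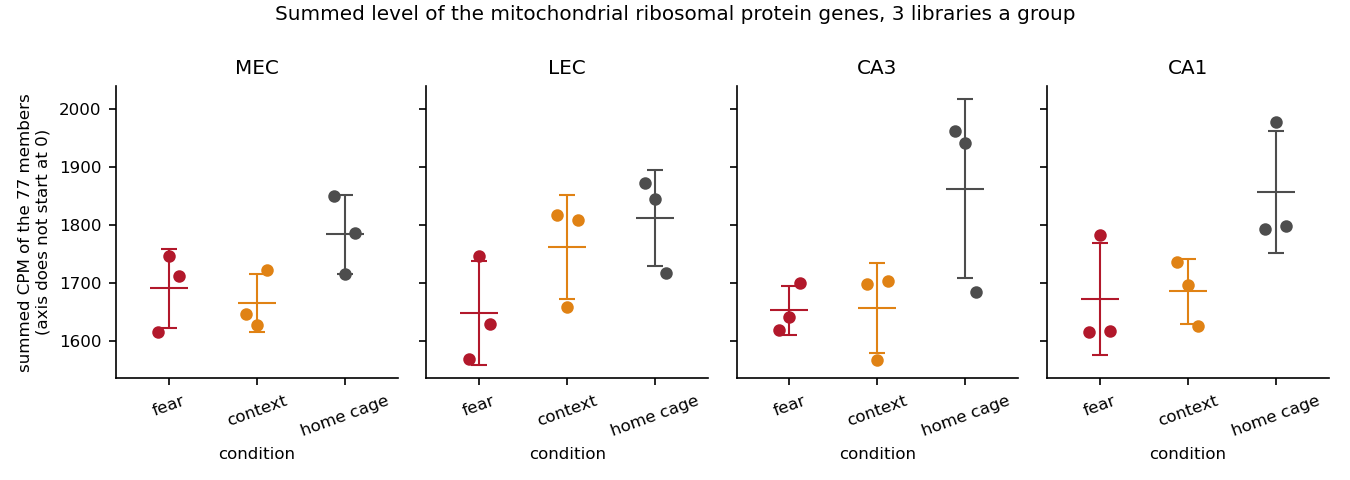
Summed CPM of the 77 members in each library (points), with group means and bars of 1 SD (n = 3), for fear, context and home cage in each region; the axis does not start at 0. Home cage means of 1783 to 1863 lie above the behaviour means of 1648 to 1761 in every region, and only in CA1 is there no overlap with home cage for both behaviour groups.

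In MEC, fear against home cage called 2 of 75 members (2.67%), both lower and both of the small subunit, where 9.56% of all genes were called and 3.88% were called lower. Mrps14 (ENSMUSG00000058267, GRCm38 chromosome 1, 160195215 to 160202170, plus strand), whose human counterpart is mutated in an inherited defect of mitochondrial translation, had 31.4, 30.2 and 29.5 CPM after fear and 37.96, 33.8 and 32.2 CPM after context, against 46.3, 35.4 and 39.9 CPM in the home cage. Fear lay below home cage without overlap, at −0.44 ± 0.12 (adjusted p = 0.0328). Mrps18c (ENSMUSG00000016833, GRCm38 chromosome 5, 100798627 to 100804471, plus strand), a small-subunit member of the S18 family, had 12.7, 15.6 and 13.0 CPM after fear and 15.3, 14.9 and 15.6 CPM after context, against 24.4, 18.2 and 16.8 CPM in the home cage. Its fear libraries were likewise all below home cage, at −0.55 ± 0.15 (adjusted p = 0.0400), and 250 of its exonic bases overlap Gm43511 on the same strand. The 75 tested members ranged from −0.55 to 0.36, with 51 below 0 and a median of −0.13, against a median of −0.01 for all genes, and with offsets for GC content and exonic length the members' median was −0.02. In 18 members (24.0%) all fear libraries lay below all home cage libraries, against 14% of all genes.

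Neither MEC call was kept with these offsets, where Mrps14 stood at −0.13 (adjusted p = 0.375) and Mrps18c at −0.17 (adjusted p = 0.338) in edgeR's test. Without fear 1, 2 or 3, context 2 or home cage 1, 0 members were called, without context 1 or home cage 2 there was 1, and without home cage 3 there were 11. Oligodendrocyte markers were higher after fear in the same libraries, 6 of 9 called, with summed levels of 2510 to 3490 CPM after fear against 1634 to 2376 CPM in the home cage. Endothelial markers (3 of 7 called higher, 91.4 to 129.5 CPM after fear against 67.9 to 75.4 CPM in the home cage) and neuron markers (2 of 5 called higher, 6841 to 7362 CPM against 5255 to 5825 CPM) moved with them, and none of these markers was at 0. Their part in the result was not tested.

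Context against home cage in MEC called 0 of 75 members, where 0.57% of all genes were called. edgeR gave 15 members an unadjusted p under 0.05, and DESeq2 called 1, Mrps24, with an adjusted p of 0.0340. Deviations of same-numbered libraries correlated above 0.1 in every pair here, which was read from these same data and is given by no label. With the replicate block edgeR also called 1, again Mrps24. This gene, the counterpart of a bacterial small-subunit protein at the entry of the messenger RNA, had 8.85, 9.56 and 9.88 CPM after context against 11.9, 12.9 and 14.7 CPM in the home cage. All context libraries lay below all home cage libraries, at −0.51 ± 0.14 (edgeR adjusted p = 0.108, and 0.0399 with the block). Mrpl52 stood at −0.68 ± 0.22 (adjusted p = 0.154) and Mrpl30 at −0.39 ± 0.13 (adjusted p = 0.183). Of the 75 members, 63 lay below 0 with a median of −0.12 (−0.04 with the offsets), against −0.02 for all genes, and in 18 (24.0%) all context libraries lay below all home cage libraries, against 7.45% of all genes.

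In LEC, 0 of 75 members were called for fear against home cage, as were 0% of all genes. edgeR gave 10 members an unadjusted p under 0.05, and DESeq2 called 0. The 3 members of smallest p were Mrps24, Mrpl30 and Mrps14, each with all fear libraries below all home cage libraries. Mrps24 had 7.98, 8.46 and 10.6 CPM after fear against 14.2, 14.4 and 11.5 CPM in the home cage (−0.61 ± 0.17, adjusted p = 0.527). Mrpl30, a large-subunit protein with a bacterial counterpart, had 34.7, 41.4 and 30.3 CPM after fear against 48.2, 47.3 and 46.1 CPM in the home cage (−0.45 ± 0.15, adjusted p = 0.573). Mrps14 had 30.9, 40.3 and 31.3 CPM after fear against 45.8, 45.7 and 40.4 CPM in the home cage (−0.40 ± 0.14, adjusted p = 0.579), a gap of less than 0.1 CPM between its highest fear and lowest home cage library. Of the 75 members, 67 lay below 0 with a median of −0.18, against −0.01 for all genes, and the median was −0.17 with the offsets and −0.26 to −0.14 with 1 library left out. In 12 members (16.0%) all fear libraries lay below all home cage libraries, against 4.16% of all genes.

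After context in LEC, 0 of 75 members were called, and 0% of all genes. No member had an unadjusted edgeR p under 0.05, and DESeq2 called 0. Mrps18c stood at −0.42, Mrps21 at −0.41 and Mrpl43 at −0.27, each with an adjusted p of 1, and 58 members lay below 0 with a median of −0.10 (−0.08 with the offsets). In 2 members (2.67%) all context libraries lay below all home cage libraries, against 2.18% of all genes.

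In CA3, fear against home cage called 0 of 75 members, where 0.00619% of all genes were called. edgeR gave 17 members an unadjusted p under 0.05, and DESeq2 called 3, Mrps10, Mrpl52 and Mrpl34. Mrps10, the counterpart of a bacterial protein in the head of the small subunit, had 16.8, 16.2 and 15.9 CPM after fear against 26.6, 28.7 and 20.02 CPM in the home cage, without overlap (−0.64 ± 0.16, adjusted p = 0.150). With the offsets its change was −0.79 (edgeR adjusted p = 0.0456). Mrpl52, a mitochondria-specific protein of the large subunit, had 2.90, 3.67 and 3.75 CPM after fear against 7.07, 16.1 and 4.32 CPM in the home cage (−1.43 ± 0.41, adjusted p = 0.161), and Mrpl34 stood at −1.51 ± 0.47 (adjusted p = 0.170). Home cage 2 was the highest library for all 3. Without it they stood at −0.51 for Mrps10 (adjusted p = 0.390), −0.72 for Mrpl52 (adjusted p = 0.453) and −0.82 for Mrpl34 (adjusted p = 0.506). Of the 75 members, 62 lay below 0 with a median of −0.20 (−0.08 with the offsets), against −0.04 for all genes, and in 25 (33.3%) all fear libraries lay below all home cage libraries, against 13.8% of all genes.

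Among the 12 comparisons of conditions, context against home cage in CA3 held the most called members. It called 10 of 75 members (13.3%), all lower, where 13.9% of all genes were called and 8.13% were called lower. Of the 10, 7 belong to the large and 3 to the small subunit. Over the 75 members, 48 lay below 0 and 27 above, with a median of −0.21 (−0.14 with the offsets), against −0.01 for all genes. In 23 (30.7%) all context libraries lay below all home cage libraries, against 17.6% of all genes. In 6 of the 75 all context libraries lay above all home cage libraries, against 16.3% of all genes. Mrpl14 (ENSMUSG00000023939, GRCm38 chromosome 17, 45686322 to 45698495, plus strand), the counterpart of a bacterial protein at the face between the subunits, had 3.39, 1.74 and 2.14 CPM after context against 6.73, 8.84 and 5.51 CPM in the home cage, with 4.73, 7.28 and 4.21 CPM after fear. Every context library lay below every fear and every home cage library, and the change against home cage was −1.52 ± 0.32 (adjusted p = 0.0450). Mrpl34 (ENSMUSG00000034880, GRCm38 chromosome 8, 71464959 to 71465747, plus strand), a small protein of the large subunit with a bacterial counterpart, had 2.57, 0.824 and 2.14 CPM after context against 5.19, 11.9 and 3.41 CPM in the home cage, with 2.37, 2.78 and 2.14 CPM after fear. Both behaviour groups lay below home cage without overlap, and context stood at −1.87 ± 0.49 against home cage (adjusted p = 0.0450), which was −0.85 (adjusted p = 0.297) without context 2 and home cage 2.

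The remaining calls in CA3 were smaller. Mrpl55 had 13.4, 6.42 and 7.70 CPM after context against 19.0, 27.2 and 13.6 CPM in the home cage (−1.10 ± 0.29, adjusted p = 0.0450). Mrpl41 had 28.4, 18.2 and 21.1 CPM after context against 39.4, 38.9 and 29.1 CPM in the home cage (−0.65 ± 0.18, adjusted p = 0.0457). In both, the groups did not overlap, but context 1 lay within 1 CPM of home cage 3. Mrpl54 had 8.06, 4.51 and 4.86 CPM after context against 12.5, 17.5 and 7.55 CPM in the home cage, the called member whose groups overlapped (−1.09 ± 0.31, adjusted p = 0.0459). The other called members, named here after their values were seen, were Mrpl12 at −1.13 ± 0.31, Mrpl28 at −0.86 ± 0.25, Mrps24 at −0.79 ± 0.23, Mrps21 at −0.74 ± 0.22 and Mrps16 at −0.63 ± 0.18. Mrpl12, the counterpart of the bacterial stalk protein, which also binds the mitochondrial RNA polymerase, had 23.4, 8.24 and 13.5 CPM after context against 31.3, 41.9 and 26.3 CPM in the home cage, with 27.0, 34.1 and 27.2 CPM after fear. Mrps16, whose human counterpart is mutated in a respiratory chain deficiency, had 10.9, 9.11 and 11.8 CPM after context against 17.7, 18.5 and 13.4 CPM in the home cage.

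**Figure D3:**
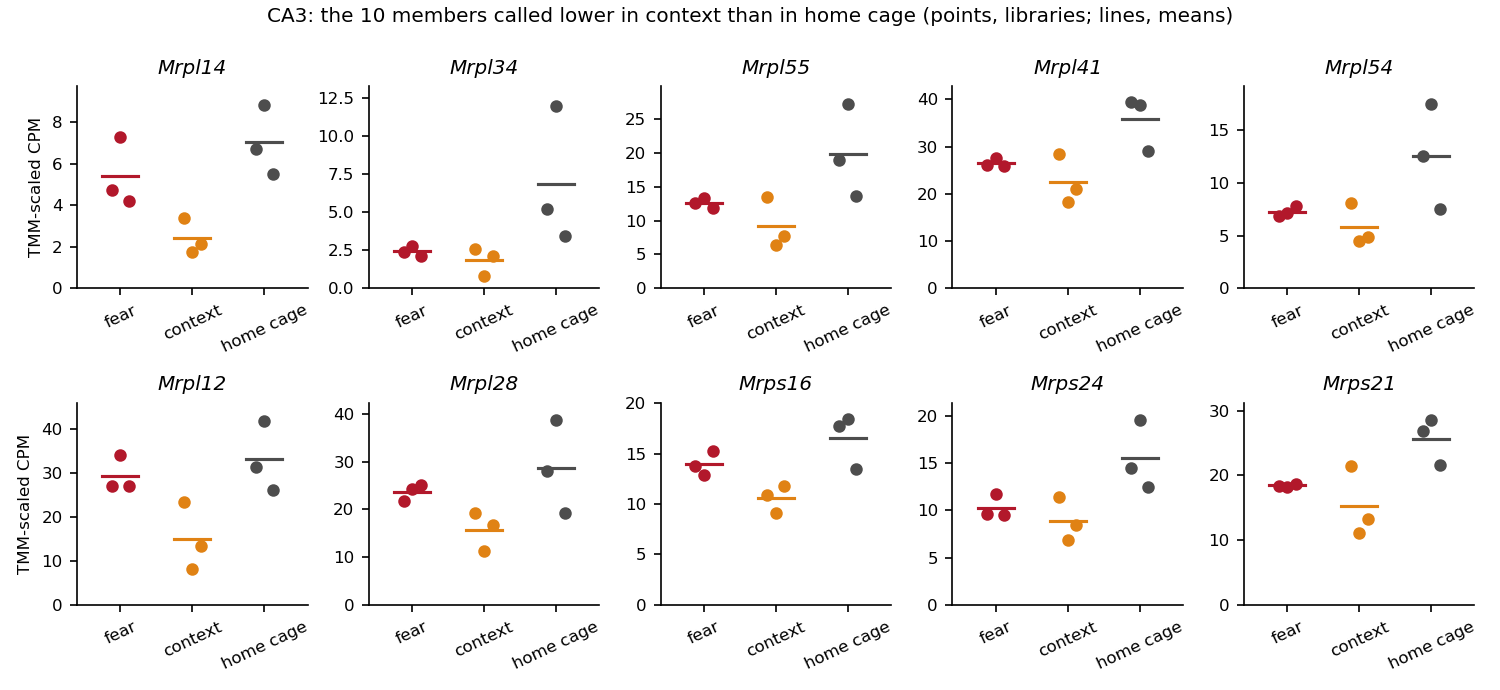
Level in CPM of the 10 members called lower after context in CA3, in each library (points) with group means (lines) for fear, context and home cage; every axis starts at 0. Context 2 is the lowest context library for all 10 and home cage 2 the highest home cage library for 9 of them.

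These calls lay just under the threshold, and the smallest adjusted p over all genes in this comparison was 0.0450 in edgeR's test. With context 2 and home cage 2 left out, 0 of 75 members and 0 of 16397 genes were called in CA3 for context against home cage by edgeR, with 8 members and 2529 genes at an unadjusted p under 0.05, and DESeq2 was not run on these libraries. The members' median was then −0.09. Mrpl14 stood at −1.13 (edgeR adjusted p = 0.293), Mrpl12 at −0.63, Mrpl54 at −0.62, Mrpl55 at −0.61, Mrps21 at −0.47, Mrpl41 at −0.46, Mrps16 at −0.45, Mrps24 at −0.43 and Mrpl28 at −0.39. Leaving out context 1 gave 27 calls and leaving out home cage 3 gave 17, and leaving out any other of the 9 CA3 libraries gave 0. Among those are the fear libraries, which enter the fit but are not part of this comparison. The loss of the calls therefore does not mark the library left out as their source. With the GC and length offsets 1 member was called, Mrps16 at −0.73 ± 0.17 (edgeR adjusted p = 0.0484). In that fit Mrpl14 stood at −0.54 and Mrpl34 at −0.87, while Mrpl54 and Mrpl28 turned to 0.04 and 0.06. Blood markers were lower after context, 4 of 5 called, with summed levels of 9.63 to 20.4 CPM after context against 32.3 to 55.4 CPM in the home cage. Microglia markers (3 of 9 called lower, 259 to 296 CPM after context against 291 to 424 CPM in the home cage) and astrocyte markers (2 of 7 called lower, 1862 to 2079 CPM against 2094 to 2650 CPM) moved with them, and none was at 0. Without context 2 and home cage 2 none of these markers was called, with medians of −1.16, −0.33 and −0.32 for the 3 lists and 4, 4 and 1 of their genes at an unadjusted edgeR p under 0.05. Their part in the result was not tested.

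The members' changes in CA3 varied with base composition. Over the 75 tested members, the change after context correlated with GC content, taken from the longest transcript, at r = −0.70. With log2 length of the principal transcript it correlated at r = 0.56, and after the offsets these values were 0.12 and 0.07. These are descriptions across genes of the same 6 libraries. Members with a GC content up to 47.0%, from 47.0% to 52.4% and above it had medians of 0.08, −0.20 and −0.80, against 0.32, 0.04 and −0.51 for the other genes of the same 3 classes, and with the offsets the members' medians were −0.19, −0.07 and −0.11. In MEC after fear the correlation with GC content was 0.58, and the 3 classes stood at −0.23, −0.11 and 0.09, against −0.17, −0.01 and 0.17 for the other genes. In LEC after fear it was 0.08, and the classes stood at −0.19, −0.14 and −0.19, against −0.04, 0.04 and −0.01 for the other genes. Of the 10 members called in CA3, 8 lay in the class of highest GC content and 7 had principal transcripts of at most 1039 bases, and the part of either in the result was not tested beyond the offsets. The members had a median GC content of 49.8%, the same as protein-coding genes tested, and a median principal transcript of 1316 bases, against 3006 bases.

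**Figure D4:**
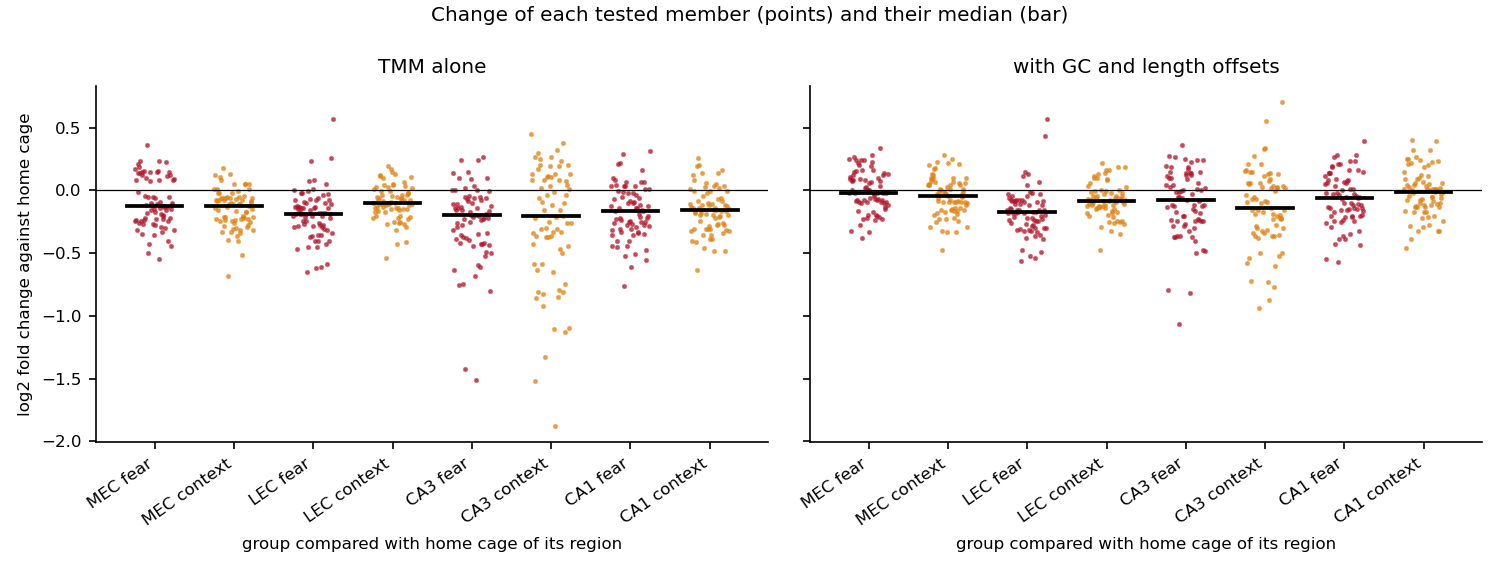
Log2 fold change of each of the 75 tested members (points) and their median (bar) after fear or context against home cage in each region, with TMM alone (left) and with GC and length offsets (right). With TMM alone all 8 medians lie between −0.21 and −0.10, and with the offsets they lie between −0.17 and −0.01.

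In CA1, fear against home cage called 0 of 75 members, and 0% of all genes. edgeR gave 15 members an unadjusted p under 0.05 and DESeq2 called 7. With the replicate block edgeR called 3, Mrpl27, Mrpl30 and Mrps14. That same-numbered libraries pair here was read from these same data and is given by no label. Mrpl27 (ENSMUSG00000024414, GRCm38 chromosome 11, 94653767 to 94660089, plus strand), whose bacterial counterpart reaches the peptidyl transferase centre, had 22.1, 24.5 and 22.9 CPM after fear and 28.5, 24.8 and 26.7 CPM after context, against 32.9, 36.2 and 35.5 CPM in the home cage. The 3 groups did not overlap, and fear stood at −0.61 ± 0.12 against home cage (edgeR adjusted p = 0.0623, with the block 0.0341, DESeq2 0.000889). Mrpl52 had 4.48, 4.49 and 3.80 CPM after fear against 6.27, 7.77 and 7.40 CPM in the home cage (−0.76 ± 0.21, adjusted p = 0.0798). Mrps10 had 21.9, 20.7 and 18.6 CPM after fear against 29.5, 25.9 and 27.0 CPM in the home cage (−0.45 ± 0.12, adjusted p = 0.0838). Neither overlapped with home cage. Of the 75 members, 58 lay below 0 with a median of −0.17, against −0.02 for all genes, and in 17 (22.7%) all fear libraries lay below all home cage libraries, against 12% of all genes.

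After context in CA1, 0 of 75 members were called, and 0% of all genes. edgeR gave 10 members an unadjusted p under 0.05, and DESeq2 called 0. Mrpl27 stood at −0.39 ± 0.12 (adjusted p = 0.114) and Mrps10 at −0.40 ± 0.12 (adjusted p = 0.118), with 22.1, 19.0 and 21.3 CPM of Mrps10 after context. Mrpl41 had 28.3, 27.5 and 24.96 CPM after context against 34.6, 34.2 and 34.3 CPM in the home cage (−0.36 ± 0.11, adjusted p = 0.126). All 3 lay below home cage in every context library. Of the 75 members, 60 lay below 0 with a median of −0.15, against −0.05 for all genes, and in 17 (22.7%) all context libraries lay below all home cage libraries, against 10.7% of all genes. With the offsets, the median was −0.06 after fear and −0.01 after context.

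Set against context, fear called no member in any region. In MEC 0 of 75 members were called, with 0% of all genes, 3 members at an unadjusted edgeR p under 0.05 and 0 by DESeq2. Mrpl4 had 25.8, 27.2 and 28.2 CPM after fear against 17.1, 20.2 and 23.3 CPM after context, without overlap (0.42 ± 0.13, edgeR adjusted p = 0.312), and Mrpl55 stood at 0.52 ± 0.17 (adjusted p = 0.312). In LEC 0 were called, with 0% of all genes, 2 members at an unadjusted p under 0.05 and 0 by DESeq2. Mrps18b stood at 0.55 ± 0.21 (adjusted p = 1), with 7.10, 8.83 and 6.54 CPM after fear against 4.43, 5.49 and 5.45 CPM after context. Mrps24 stood at −0.41 ± 0.17 and Mrpl20 at −0.27 ± 0.15. Most members went the way of these, with 58 of 75 below 0 and a median of −0.12, against 0.01 for all genes. All fear libraries lay below all context libraries in 9 members and above them in 1, Mrps18b. In CA3 0 were called, with 0% of all genes, 13 members at an unadjusted p under 0.05 and 2 by DESeq2, Mrpl14 and Mrpl12. Mrpl14 stood at 1.13 ± 0.32, Mrpl32 at −0.63 ± 0.20 and Mrps22 at −0.45 ± 0.14 (each adjusted p = 0.150), and without context 1 edgeR called 16 members. In CA1 0 were called, with 0% of all genes, 1 member at an unadjusted p under 0.05 and 0 by DESeq2, and Mrps18b stood at 0.46 ± 0.20 (adjusted p = 0.846). Over the 75 tested members the changes of fear against context correlated with GC content at r = 0.72 in MEC and 0.73 in CA3. The values were 0.08 in LEC and 0.39 in CA1. With the GC and length offsets they were −0.23 in MEC, −0.004 in CA3, 0.16 in LEC and −0.006 in CA1. The part of GC content in these changes was not tested beyond the offsets.

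The members named above can be followed through the 4 regions, and not all kept one sign. After fear, Mrpl30 stood at −0.43 in MEC, −0.45 in LEC, −0.38 in CA3 and −0.52 in CA1. Mrps14 stood at −0.44, −0.40, −0.22 and −0.48 in the same order, and Mrpl52 at −0.50, −0.65, −1.43 and −0.76. Mrps10 stood at −0.32, −0.13, −0.64 and −0.45, Mrps24 at −0.20, −0.61, −0.61 and −0.34, and Mrpl27 at −0.17, −0.14, −0.20 and −0.61. These 6 were below 0 in every region, but they had been named for small p in comparisons with home cage. Of all 75 tested members, 51, 67, 62 and 58 lay below 0 after fear in the same order of regions, so this sign is not particular to the 6. Mrpl34 stood at 0.24, −0.45, −1.51 and −0.09, Mrpl14 at 0.14, −0.47, −0.39 and −0.26, and Mrpl55 at 0.16, −0.62, −0.68 and −0.10, with MEC above 0 in each. Mrpl4 stood at 0.36, −0.19, −0.23 and 0.29, and Mrpl12 at 0.15, −0.32, −0.19 and 0.07, with MEC and CA1 above 0. Whether the response to behaviour differed between regions was tested in 1 fit of all 36 libraries, where 0 of 76 members and 0% of all 17875 genes passed. edgeR gave 6 members an unadjusted p under 0.05 in this test and DESeq2 called 0. The smallest were those of Mrpl34, Mrpl27 and Mrpl14, each with an adjusted p of 0.477.

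The 3 paralogs of the S18 family differed in level. Mrps18a belongs to the large subunit and Mrps18b and Mrps18c to the small one. Over the 36 libraries Mrps18a stood at 37.7, Mrps18c at 27.5 and Mrps18b at 6.10 CPM per kilobase. After fear in MEC, LEC, CA3 and CA1, Mrps18c stood at −0.55, −0.40, −0.19 and −0.50, Mrps18a at 0.08, −0.01, −0.07 and 0.03, and Mrps18b at 0.09, 0.57, −0.13 and 0.31. Of these 12 values, the MEC value of Mrps18c was the one that passed the test, and a difference between the paralogs was not tested.

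In each of the 3 comparisons between regions, averaged over conditions, a smaller share of the members was called than of all genes. Entorhinal against hippocampal libraries called 21 of 76 members (27.6%), 8 higher and 13 lower, where 50.9% of all genes were called. The lower and upper quartiles of the members' values were −0.13 and 0.08, against −0.27 and 0.25 for all genes. Mrpl16 (ENSMUSG00000024683, GRCm38 chromosome 19, 11770391 to 11774960, plus strand), the counterpart of a bacterial protein near the peptidyl transferase centre, averaged 22.7 ± 0.99 CPM in MEC and 22.2 ± 1.96 CPM in LEC, against 16.9 ± 1.18 CPM in CA3 and 16.4 ± 1.84 CPM in CA1 (SD, n = 9 each). It was the member whose 18 entorhinal libraries (20.4 to 26.5 CPM) all lay above the 18 hippocampal ones (14.4 to 19.0 CPM), at 0.42 ± 0.05 (adjusted p = 1.25e-08).

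Mrps25 (ENSMUSG00000014551, GRCm38 chromosome 6, 92169525 to 92184033, minus strand), a mitochondria-specific protein of the small subunit, averaged 30.3 ± 2.30 CPM in MEC (26.7 to 34.2, median 30.1) and 36.5 ± 3.26 CPM in LEC (30.9 to 43.0, median 36.3), against 27.2 ± 1.98 CPM in CA3 (24.0 to 30.5, median 26.8) and 24.2 ± 1.59 CPM in CA1 (22.2 to 26.7, median 24.0). It was called in all 3 region comparisons, entorhinal over hippocampal at 0.36 ± 0.04 (adjusted p = 1.2e-08), MEC below LEC at −0.27 ± 0.06 (adjusted p = 0.00132) and CA3 over CA1 at 0.18 ± 0.06 (adjusted p = 0.0185). The libraries of MEC overlapped with those of LEC and of CA3, and those of CA3 with those of CA1, while LEC lay above CA3 and CA1 without overlap. Of its exonic bases, 4590 of 6576 overlap Nr2c2 on the other strand, so its count is uncertain.

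Other members higher in the entorhinal cortex were Mrpl49 (0.30 ± 0.05), Mrpl40 (0.29 ± 0.06), which lies in the segment syntenic to the human DiGeorge region, and Mrps30 (0.27 ± 0.05). Mrpl49 averaged 38.5 ± 1.67 CPM in MEC and 43.0 ± 5.09 CPM in LEC, against 34.3 ± 3.67 CPM in CA3 and 31.3 ± 3.39 CPM in CA1. Lower in the entorhinal cortex were Mrps33 (−0.42 ± 0.06), Mrps9 (−0.43 ± 0.06), Mrpl48 (−0.22 ± 0.05), Mrpl52 (−0.54 ± 0.13) and Mrps10 (−0.23 ± 0.06). Mrps33 averaged 24.6 ± 3.20 CPM in MEC and 26.6 ± 3.70 CPM in LEC, against 34.98 ± 3.09 CPM in CA3 and 32.9 ± 4.66 CPM in CA1. Mrps9, the counterpart of a bacterial protein whose tail reaches the bound tRNA, averaged 19.0 ± 1.77 CPM in MEC and 19.0 ± 2.35 CPM in LEC, against 22.2 ± 4.34 CPM in CA3 and 29.1 ± 4.05 CPM in CA1. These calls and those of Mrpl16 and Mrps25, 10 in all, were kept in 9 of 9 fits that left out 1 replicate of a condition.

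**Figure D5:**
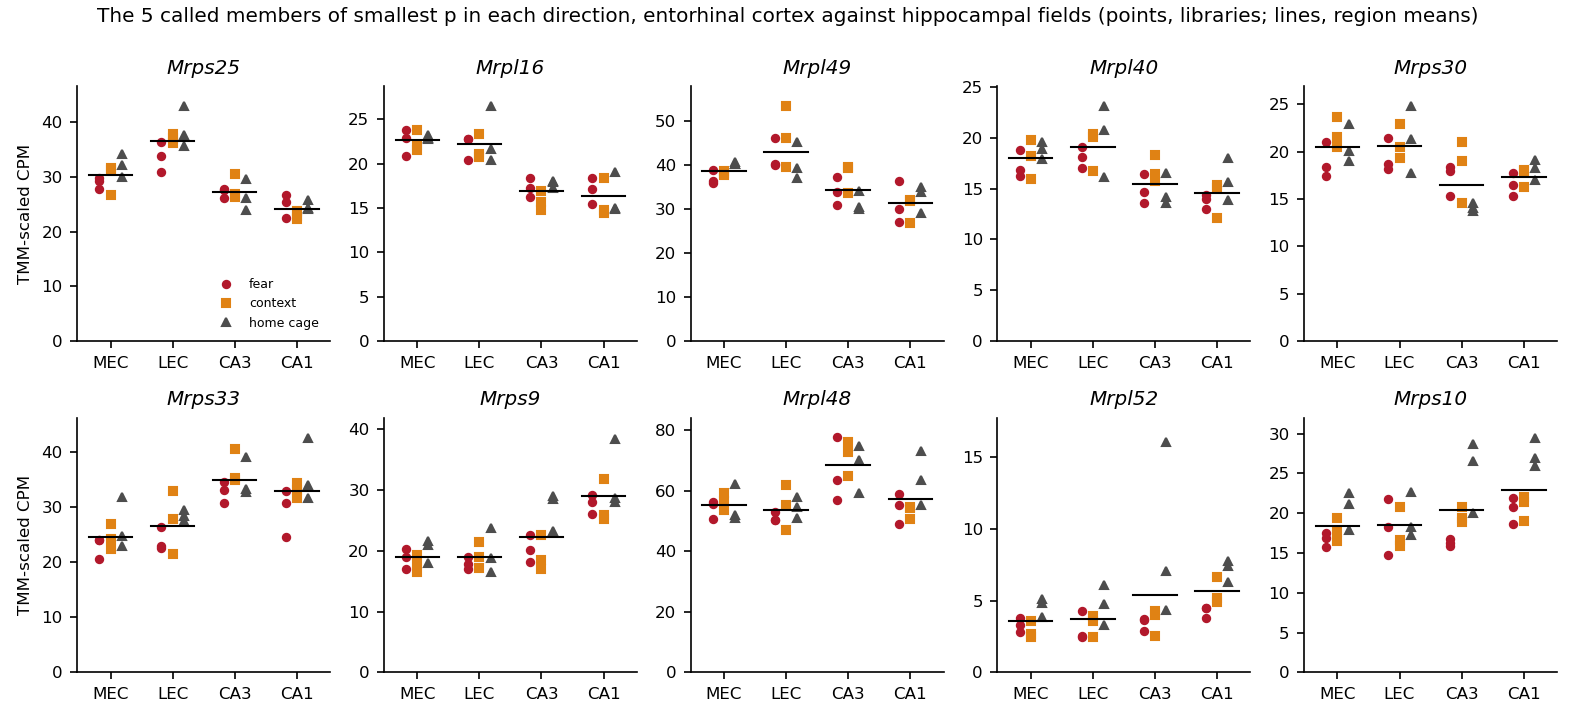
Level in CPM of 10 members in each library (points, by condition) and region means (lines); the upper row holds the 5 called members of smallest p that were higher in entorhinal cortex, the lower row the 5 that were lower. Every axis starts at 0, and of the 10 only Mrpl16 shows no overlap between entorhinal (20.4 to 26.5) and hippocampal (14.4 to 19.0) libraries.

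CA3 against CA1 called 10 of 76 members (13.2%), 5 higher and 5 lower, where 31% of all genes were called. Mrps6, a small-subunit protein with a bacterial counterpart, averaged 17.6 ± 2.24 CPM in CA3 (14.6 to 21.5, median 16.7) against 12.5 ± 1.998 CPM in CA1 (8.71 to 14.6, median 12.5). The 2 ranges met at 14.6 CPM, and the difference was 0.51 ± 0.09 (adjusted p = 9.81e-05). Its count is uncertain, since it shares exonic bases with Slc5a3 and Gm49711 on its own strand. Mrps22, whose human counterpart is mutated in a combined respiratory chain deficiency, averaged 19.6 ± 2.7 CPM in CA3 against 14.9 ± 2.45 CPM in CA1 (0.40 ± 0.09), and Mrpl48 68.5 ± 7.58 CPM in CA3 against 57.2 ± 7.38 CPM in CA1 (0.27 ± 0.07). Mrpl23, the counterpart of a bacterial protein at the exit of the peptide tunnel, averaged 16.9 ± 3.79 CPM in CA3 against 23.3 ± 3.36 CPM in CA1 (−0.47 ± 0.09, adjusted p = 0.000186), and Mrps9 stood at −0.39 ± 0.08. Those 5 were kept in 9 of 9 fits with 1 replicate left out. Mrps25 was lost in 4, Mrpl36 (0.28 ± 0.09) in 3, Mrps5 (−0.19 ± 0.06) in 1, Mrps21 (−0.32 ± 0.12) in 6 and Mrpl47 (−0.21 ± 0.08) in 7 of the 9, and without context replicate 3 of all regions 6 members were called.

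MEC against LEC called 3 of 76 members (3.95%), 1 higher and 2 lower, where 17.4% of all genes were called. Mrpl58, a peptidyl-tRNA hydrolase built into the large subunit that also frees stalled ribosomes, averaged 32.4 ± 2.63 CPM in MEC (27.6 to 36.7) against 28.1 ± 1.35 CPM in LEC (26.6 to 30.8), at 0.20 ± 0.06 (adjusted p = 0.0133). Mrps23 averaged 22.2 ± 1.75 CPM in MEC (20.5 to 26.0) against 26.0 ± 2.35 CPM in LEC (21.9 to 29.7), at −0.23 ± 0.07 (adjusted p = 0.0246). Both pairs of ranges overlapped, and the calls were lost in 3 and 4 of 9 fits with 1 replicate left out. Mrps25 was kept in all 9, and without fear replicate 3 of all regions it was the 1 call left.

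Cell composition differed between the regions as well. Against hippocampal libraries, entorhinal ones had 9 of 9 oligodendrocyte markers lower with a median of −1.98, 5 of 5 meninges markers higher, 4 of 5 choroid plexus markers lower and 5 of 7 dentate granule markers lower. Against LEC, MEC had 9 of 9 oligodendrocyte markers higher. Against CA1, CA3 had 7 of 9 microglia and 5 of 5 meninges markers lower and 5 of 9 oligodendrocyte markers higher. Of all 17875 genes, 4558 were called higher and 4534 lower in entorhinal than in hippocampal libraries. MEC against LEC called 1573 higher and 1536 lower, and CA3 against CA1 called 2940 higher and 2609 lower. The part of cell composition in the members' differences was not tested. With the GC and length offsets, the split of calls was 7 higher and 27 lower for entorhinal against hippocampal libraries, with 19 of the 21 calls kept, and 4 higher and 12 lower for CA3 against CA1, with 9 of the 10 kept.

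Other proteins of the mitoribosome have names outside the Mrpl and Mrps series, and 5 of them were measured. Dap3, a GTP-binding protein of the small subunit, averaged 74.5 ± 5.41 CPM, or 15.6 CPM per kilobase (SD, n = 36), and Ptcd3, a pentatricopeptide repeat protein, 58.5 ± 8.53 CPM, or 22.7 per kilobase. Chchd1 stood at 18.1 ± 3.77 CPM (29.4 per kilobase), Aurkaip1 at 35.5 ± 5.99 CPM (30.6 per kilobase) and Gadd45gip1, known as CRIF1, at 2.16 ± 1.17 CPM (0.87 per kilobase). Of the 5, Aurkaip1 (−0.68 ± 0.19, adjusted p = 0.0453) and Gadd45gip1 (−1.73 ± 0.52, adjusted p = 0.0477) were called lower in CA3 after context against home cage. In the same comparison Dap3 stood at −0.21, Chchd1 at −0.36 and Ptcd3 at 0.31, with adjusted p of 0.226, 0.173 and 0.125. Without context 2 and home cage 2, Aurkaip1 stood at −0.41 (adjusted p = 0.299) and Gadd45gip1 at −0.74 (adjusted p = 0.396). The changes of these further proteins are given without the GC and length offsets, and the part of base composition and length in them was not tested.

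Genes of the surrounding pathway were read against the 8.13% of all genes called lower in CA3 after context and the 3.88% called lower in MEC after fear. All values for these lists come from fits without the GC and length offsets, with which 1 member was called in CA3 after context. The part of base composition and length in the changes of these lists was not tested. In CA3 after context, cytosolic ribosomal protein genes, which build the ribosome that makes these proteins, were called lower in 48 of 79 tested with a median of −0.82, and nuclear genes of complex I in 15 of 37 with a median of −0.40, against 10 of 75 members with a median of −0.21. Of 24 mitoribosome assembly genes 1 was called lower (Mtg1, a GTPase, −0.60) and of 20 mitochondrial tRNA synthetases 2 were lower (Aars2, −1.18, and Vars2, −0.92), shares near that of all genes. Among 13 genes of mitochondrial transcription and its regulators, Polrmt, the mitochondrial RNA polymerase (−1.65), and Esrra (−1.65) were lower and Yy1 (0.59) and the coactivator Ppargc1a (0.71) higher, all named after their values were seen. Without context 2 and home cage 2 no gene of these lists was called by edgeR, and the medians were −0.53 for cytosolic ribosomal protein genes (49 of 80 at an unadjusted p under 0.05) and −0.28 for complex I genes (15 of 37). The 16 translation factors had a median of 0.01 and the 13 mitochondrially encoded protein genes one of 0.06. In MEC after fear, 31 of 79 cytosolic ribosomal protein genes were lower (median −0.33), 1 of 37 complex I genes, and 1 translation factor, Guf1 (−0.73 ± 0.14, adjusted p = 0.00813).

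Between entorhinal and hippocampal libraries, where 50.9% of all genes were called, these lists held calls in both directions. Of 24 assembly genes 6 were higher and 7 lower, among them the rRNA methyltransferase genes Mrm1 (0.61) and Mettl15 (−0.73), and Mtg1 (−0.34). Of 16 translation factors 2 were higher and 2 lower, with the elongation factor gene Gfm2 at −0.28, Mtfmt at −0.19 and the release factor gene Mtrf1l at 0.19. Of 20 synthetases 1 was higher and 6 lower, led by Tars2 (−0.27), Aars2 (−0.45) and Iars2 (−0.13). Of 13 transcription genes and regulators 1 was higher, Ppargc1a (0.40), and 5 were lower, among them Nrf1 (−0.49) and Gabpa (−0.30), whose products bind the NRF1 and ETS motifs searched for above. The share called was above that of all genes in the assembly list (13 of 24) and below it in the other 3 lists (4 of 16, 7 of 20 and 6 of 13), and no difference from all genes was tested. Cytosolic ribosomal protein genes were lower in 32 of 80 tested (median −0.16), where 4534 of all 17875 genes were called lower, and this difference was not tested. Of the 13 mitochondrially encoded genes mt-Nd6 had the smallest p (0.19, adjusted p = 0.0743).

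Members were also grouped by promoter motif. In CA3 after context, 16 members with the NRF1 motif had a median of −0.23 with 3 called, and 51 without it −0.20 with 6 called. The 24 tested members with the ETS motif had a median of −0.29 with 3 called, and 43 without it −0.12 with 6 called. The 12 members with the YY1 motif had a median of −0.29 with 1 called, and 55 without it −0.20 with 8 called. Between entorhinal and hippocampal libraries the medians were −0.06 with the NRF1 motif and 0.01 without, and −0.05 with the ETS motif and 0.01 without. For the YY1 motif they were −0.01 with and −0.02 without. All these values come from fits without the GC and length offsets, and no difference between the groups was tested.

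Many members share a start region with another gene on the opposite strand. The start of a protein-coding gene on the opposite strand lay within 1000 bases of the start for 32 of 77 members (41.6%), against 2302 of 21118 protein-coding genes (10.9%). Mrpl46 and Mrps11 form such a pair, with starts 412 bases apart, and stood at 0.13 and −0.26 between entorhinal and hippocampal libraries, where Mrps11 was called (adjusted p = 0.0339) and Mrpl46 was not (adjusted p = 0.0707). Mrpl36 starts 29 bases from Ndufs6, a complex I subunit gene. In CA3 after context Ndufs6 was called lower at −0.78 (adjusted p = 0.0450), while Mrpl36 stood at −0.10 (adjusted p = 0.737). The difference within these pairs was not tested.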

How the data were processed

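RNA was extracted with TRIzol and libraries were made with the Illumina TruSeq Stranded mRNA kit, per the labels' protocols. The deposited files hold raw counts of reads for each gene, whole numbers without normalization. The tools were Trimmomatic 0.33, STAR 2.7.10b and HTSeq 2.0.1 with the mm10 build, per the submitters' processing notes. Not given in the sources used here were the annotation, the counting mode and the strand setting. The 36 single-sample files held the same counts as the columns of the series table.

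Identifiers were matched to GENCODE M21 of GRCm38 (95.2% had a symbol). Within each region, 9 libraries were filtered with filterByExpr, scaled with TMM and fitted with edgeR 4.0.16 (robust quasi-likelihood, 6 residual degrees of freedom). Region comparisons and the region by condition test came from a fit of 36 libraries (24 residual degrees of freedom). P-values were adjusted over all genes tested. Levels per kilobase used the APPRIS principal transcript. Overlaps count merged exonic bases, and promoters came from RefSeq (GRCm38.p6). The fits were tested on simulated data with log2 changes of 1 and 2 and with less spread between replicates than in CA3. How well they find smaller changes was not tested.

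The members, the subunit classes, the gene and marker lists and the rule for naming genes were chosen with earlier results of these data known. Named were the 8 most and 5 least abundant members, those under the filter, the 5 called members of smallest p in each direction of a comparison (the 3 of smallest p where none was called), the S18 family and 5 further mitoribosomal proteins. In other lists up to 3 genes of smallest p were named in the comparison with most calls.

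Alternatives were DESeq2 1.42.0, RLE scaling, no filter, the replicate number as a block, per-library offsets for GC content and exonic length (natural splines with 5 degrees of freedom each), those offsets with the block, 1 fit of the 36 libraries for comparisons of conditions, and the removal of single libraries or of CA3 and CA1 context 2 with home cage 2. In the region fits a replicate of a condition was left out of all 4 regions together. Deviations of same-numbered libraries over 10149 genes correlated above 0.1 in every pair for MEC context and home cage (0.60, 0.33 and 0.76) and for CA1 fear and home cage (0.30, 0.40 and 0.23), and not in the other 10 comparisons of conditions. Among those 10, LEC context and home cage stood at −0.52, 0.30 and −0.69. Since the criterion was read from these same data, it does not establish that the numbers pair animals. Other versions were R 4.3.3, limma 3.58.1, Python 3.11.15, numpy 2.4.6, pandas 2.3.3 and matplotlib 3.10.9.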

Additional observations from a re-analysis of the deposited data

How the results depend on the processing

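Counts of called members moved as follows, with the count reported above first. For MEC fear against home cage, 2 became 4 with DESeq2, 0 with the GC and length offsets, 1 with the offsets and the replicate block, 0 in the fit of all 36 libraries, 7 with the replicate block and 0 to 11 with 1 library left out. For MEC context against home cage, 0 became 1 with DESeq2 and 1 with the replicate block. For MEC fear against context, 0 became 2 with the replicate block. For CA3 fear against home cage, 0 became 3 with DESeq2, 1 with the offsets, 1 with the offsets and the replicate block, 4 in the fit of all 36 libraries, and 0 to 2 with 1 library left out. For CA3 context against home cage, 10 became 17 with DESeq2, 1 with the offsets, 28 in the fit of all 36 libraries (2 higher and 26 lower), 3 with the replicate block, 0 without context 2 and home cage 2, and 0 to 27 with 1 library left out. For CA3 fear against context, 0 became 2 with DESeq2 and 0 to 16 with 1 library left out. For CA1 fear against home cage, 0 became 7 with DESeq2, 4 in the fit of all 36 libraries, 2 without the filter, 3 with the replicate block, and 0 to 7 with 1 library left out. For MEC against LEC, 3 became 5 with DESeq2, 1 without the filter and 1 to 4 with 1 replicate left out. For CA3 against CA1, 10 became 16 with the offsets and 6 to 13 with 1 replicate left out. For entorhinal against hippocampal libraries, 21 became 34 with the offsets, 35 with the offsets and the replicate block, and 16 to 24 with 1 replicate left out. The 3 LEC comparisons, both other CA1 comparisons and the region by condition test stayed at 0 under every alternative run. The cause of these moves was not tested.

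In CA3 after context, Mrpl54 changed sign with the offsets (0.0365) and with the offsets and the replicate block (0.0374), and Mrpl28 changed sign with the offsets (0.0632). Of 60 values named by the rule, the offsets left 51 on their side of the threshold, 7 lost their call and 1 gained one, and DESeq2 left 51, with 8 gained and 1 lost. By length of all merged exons in place of the principal transcript, an alternative chosen after seeing the data, as was leaving CA3 context 2 and home cage 2 out of the counts for other gene lists, 4 of the 8 highest members were the same. With 3 libraries a group, most calls between conditions were lost when any of several single libraries was left out. Members under about 5 CPM, such as Mrpl34 and Mrpl52, carry the widest errors. Counts cannot be divided between members and the genes they overlap.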
